A study of Mus musculus with 5 samples.

Results

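FGF receptors and the genes that FGF signalling switches on as its own brakes and effectors were measured in lenses of newborn mice (postnatal day 0). The set holds 10 genes, and every array probe annotated with one of their symbols was taken. Of the 10 genes, 9 had at least 1 probe, which made 17 probes of 34885 that name a single gene and 9 genes of 19057. Spry1 had no probe that names it and was not measured. Lens RNA was profiled on 5 Illumina MouseWG-6 v2.0 BeadChips, on which bead-bound probes report each transcript by fluorescence, with 2 lenses for each biological replicate. The mutant group was Celf1cKO/lacZKI with the Pax6GFPCre driver (3 arrays, A, B and C). In these mice a Celf1 allele loses a floxed exon in the developing lens, where the Pax6 lens promoter drives Cre, and the other allele carries a germline lacZ insertion. The control group is labelled wild-type on a mixed C57BL/6J and FVB background (2 arrays, A and B), while the study's methods name driver and floxed controls elsewhere, so whether the control arrays carried the driver is not settled.

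Each value is a linear intensity, background corrected and normalized by the authors, and array medians lay between 5.6 and 7.2. Because values down to -20.5 occur, 36.5 was added to make the lowest value 16 before taking log2, a scale on which changes of dim probes come out too small. Celf1 itself, the targeted gene, read 167, 173 and 154 on arrays A, B and C of the mutant, against 516 and 461 on arrays A and B of the control, on its brightest probe of a transcript record shared by 3 probes that all fell. A probe of another Celf1 record read 283, 324 and 227 in the mutant and 201 and 178 in the control, and whether any of these probes lies in the deleted exon is not known. Xist, transcribed from the inactive X chromosome, had values of -0.3 and -0.9 in mutant A and mutant B and 264 in mutant C, against 432 and 441 in the controls. The Y-linked gene Eif2s3y had 207, 177 and 4.4 in mutants A, B and C, against 2.5 and 1.1 in the controls, so that of the mutant arrays only C resembled the controls on these sex-linked genes. Control array B stood furthest from the other arrays (Spearman correlation of 0.831 to 0.847 with them over all probes). For the called genes, the losses of a call without a single array, or with C as the sole mutant array, are therefore also given. A fit that leaves a single array in a group takes its spread from the other group. Its p-values do not reflect variation within the reduced group. Markers of lens fibers were bright on every array. Of 6 measured, 2, Lim2 and Bfsp2, fell in the mutant (log2 changes -0.51 and -0.50, adjusted p = 0.013 and 0.0486 by limma). Of the brightest probes of all genes, 5.66% were called in either direction. The calls of these 2 markers were not checked without single arrays. The summed fiber markers read 108200 to 131200 in the mutant and 131100 to 138400 in the control. The summed epithelial markers Foxe3, Pax6 and Cdh1 read 138 to 209 in the mutant and 238 to 260 in the control, with 0 of 3 past the threshold. Most of this sum was Cdh1, with a mean of 147 in the mutant and 208 in the control. Foxe3 had means of 33.1 in the mutant and 31.8 in the control. Pax6, near background, had means of 3.8 and 9.2. None of 5 blood vessel markers passed (summed 445 to 510 in the mutant and 457 to 502 in the control). The red blood cell markers Hba-a1 and Alas2 did not pass but were uneven, with summed values of 1247 to 4496 in the mutant and 1432 to 1970 in the control, the highest on mutant array A. Of 3 measured markers of retina, 2 of leukocytes, 4 of mesenchyme and cornea, 5 of pigment cells and 3 of skeletal muscle, none passed either, by limma. In whole lenses, fewer cells of a type and less RNA per cell cannot be told apart, and the part of these cell types in the results below was not tested.

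Fibroblast growth factors reach the lens mainly from the vitreous behind it and drive epithelial cells at the lens equator to elongate into fiber cells. They bind receptor tyrosine kinases together with heparan sulphate, and the receptors pass the signal through adaptor proteins to Ras and the kinase ERK. ERK turns on the transcription factors Etv4 and Etv5 and a set of inhibitors, the Sprouty and Spred proteins and the phosphatase Dusp6, so that the levels of these transcripts are widely used as a readout of pathway activity. In mice, loss of Fgfr1, Fgfr2 and Fgfr3 together from the lens blocks fiber differentiation.

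The promoters of Spry2, Fgfr2 and Spred1 are shown as examples of the start regions of these genes. Spry2 has the single window that held an ETS-type motif. Fgfr2 has a GC-poor window, and Spred1, the inhibitor with the largest difference, a GC-rich window. Windows run from 250 bases before to 50 bases after a transcript start and come from RefSeq on GRCm38.p6, which held 9 windows for 7 of the 10 genes and none used here for Fgfr1, Spry4 and Etv4. The motif was the 6 letters CCGGAA, read on both strands, and capitals mark it. It occurred in 1 of the 9 windows, that of Spry2, 34 bases from the start on its transcribed side, and in 14.9% of 32851 windows of the same length over all genes. The share of G and C was 43.7% in the Fgfr2 window and 72.3% in the Spred1 window, against a median of 52.7% over all windows. Windows of Fgfr3 and Etv5, not shown, reached 73.0% and 74.0%. A match is a description of these letters and says nothing of what binds there.
Spry2, chr14:105896770-105897069, minus strand: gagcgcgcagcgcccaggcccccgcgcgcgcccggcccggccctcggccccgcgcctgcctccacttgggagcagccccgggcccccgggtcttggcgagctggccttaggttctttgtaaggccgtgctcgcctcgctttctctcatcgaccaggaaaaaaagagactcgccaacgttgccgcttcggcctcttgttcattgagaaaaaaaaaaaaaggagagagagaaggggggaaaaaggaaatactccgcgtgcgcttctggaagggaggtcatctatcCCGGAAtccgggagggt
Fgfr2, chr7:130266759-130267058, minus strand: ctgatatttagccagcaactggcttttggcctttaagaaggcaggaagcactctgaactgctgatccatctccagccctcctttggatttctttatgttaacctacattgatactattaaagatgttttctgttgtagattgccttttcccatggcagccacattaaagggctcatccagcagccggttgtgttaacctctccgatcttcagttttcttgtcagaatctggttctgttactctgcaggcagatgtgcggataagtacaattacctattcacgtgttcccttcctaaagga
Spred1, chr2:117120821-117121120, plus strand: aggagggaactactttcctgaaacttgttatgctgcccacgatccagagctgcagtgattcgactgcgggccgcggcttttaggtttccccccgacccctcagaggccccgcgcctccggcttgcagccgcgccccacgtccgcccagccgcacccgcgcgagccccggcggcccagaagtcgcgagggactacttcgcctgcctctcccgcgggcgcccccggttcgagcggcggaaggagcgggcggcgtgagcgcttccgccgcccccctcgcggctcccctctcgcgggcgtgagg

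Among the FGF receptors and feedback genes, Fgfr2 on one of its probes and Etv4 rose in Celf1cKO/lacZKI lenses, and Fgfr3 fell on the dimmer of its probes. Of the 17 probes, 3 passed an adjusted p under 0.05 by limma with Benjamini-Hochberg adjustment over the 34885 probes, 2 higher and 1 lower in the mutant. Over all probes 4.28% were called, 2.40% higher and 1.89% lower. On 10 of the 17 probes the 3 mutant arrays did not overlap with the controls, 5 above and 5 below, where 30.9% of all probes did so. At an unadjusted p under 0.05, 4 of the probes were higher and 4 lower, and 15.2% of all probes passed it. On the shifted log2 scale none of the 17 probes reached a 2.0-fold change, which 0.662% of all probes did at an unadjusted p under 0.05. With the lowest value at 4, which shrinks dim probes less, the called Fgfr2 probe had a log2 change of 1.015. The median log2 change was 0.08 over the 17 probes and 0.00 over all probes. With 3 arrays against 2, an exact two-sided permutation test of a single probe cannot go below p = 0.1.

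**Figure D1:**
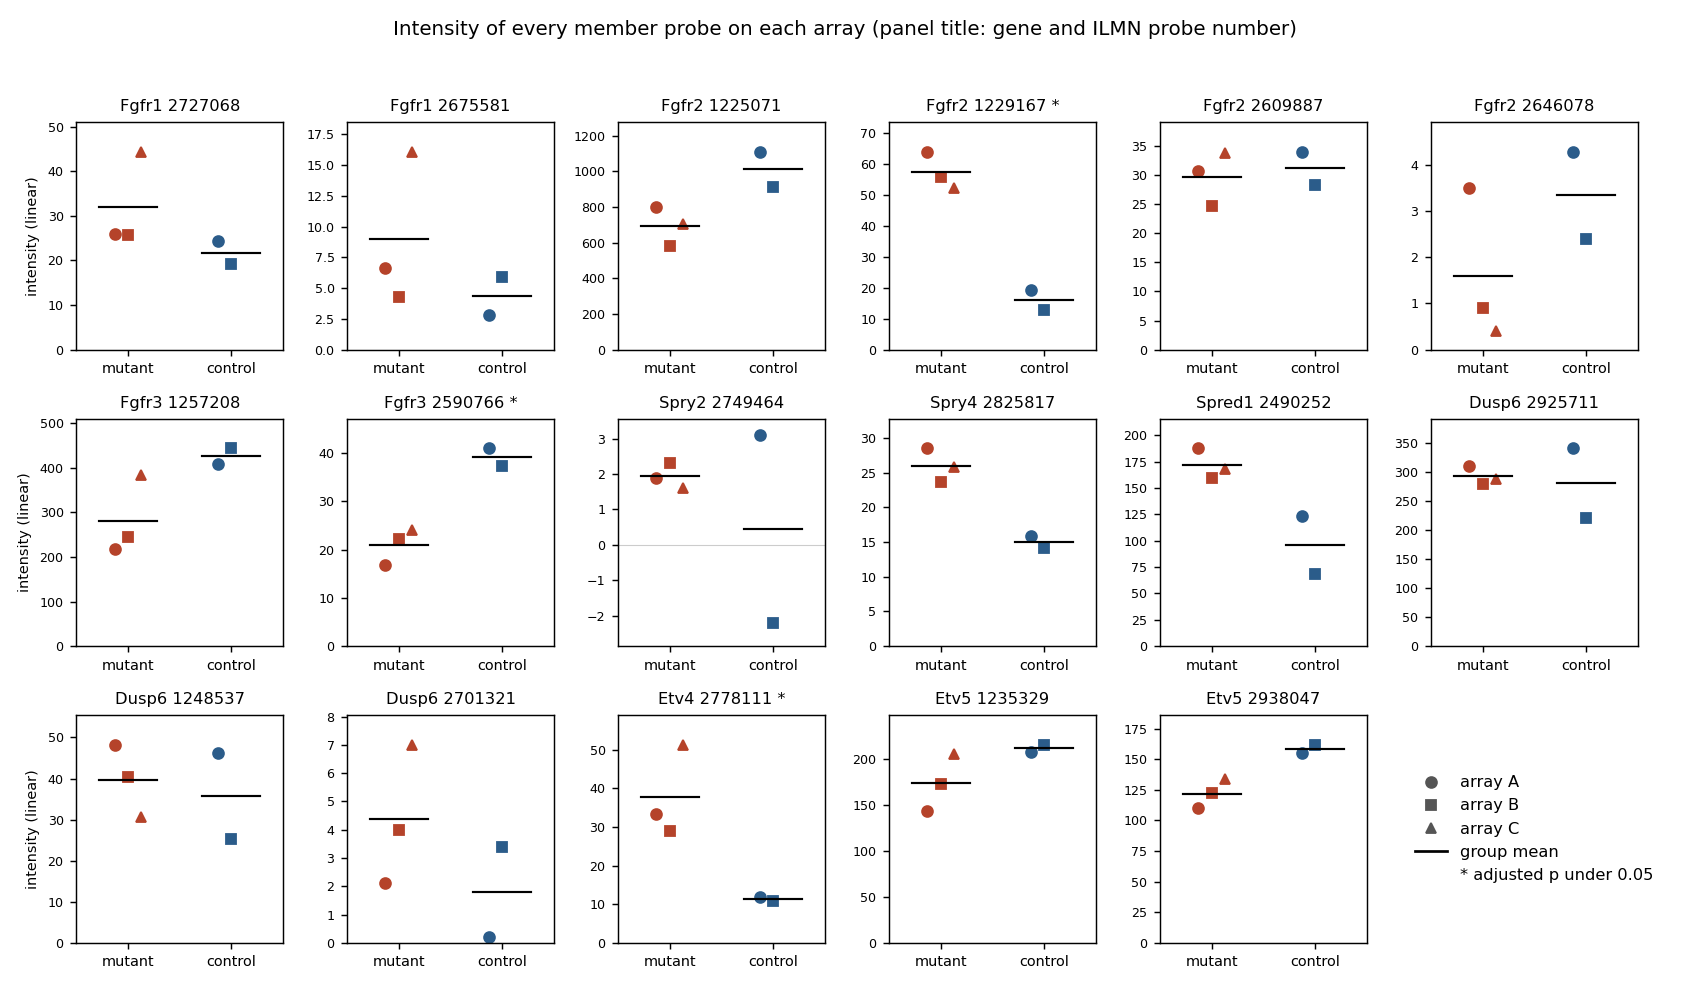
Deposited intensity (linear scale, vertical axes) of each of the 17 probes on the 3 mutant arrays (left in each panel) and the 2 control arrays (right), with a bar for each group mean. The groups do not overlap on 10 probes, and stars mark the 3 with an adjusted p under 0.05.

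Fgfr1, a receptor of broad expression, was dim. Its brighter probe (ILMN_2727068) read 26.0, 25.7 and 44.4 on arrays A, B and C of the mutant, against 24.3 and 19.1 on arrays A and B of the control. Only array C stood clearly apart, and the other mutant arrays lay just above control array A. The log2 change was 0.23 (standard error 0.13, 95% interval -0.07 to 0.52, adjusted p = 0.485 by limma), and the second probe, at 4.3 to 16.1 in the mutant and 2.8 to 5.9 in the control, lay near the array medians.

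Fgfr2, a receptor made in splice forms that differ in which FGFs they bind, rose on 1 of its 4 probes and did not pass on the other 3. The brightest probe (ILMN_1225071) read 801, 579 and 705 on the mutant arrays, against 1111 and 910 on the controls. All 3 mutant arrays lay below both controls, with a mutant mean of 695 ± 112 (SD, n = 3) and a control mean of 1010 ± 142 (SD, n = 2). The log2 change of -0.52 (standard error 0.14, 95% interval -0.85 to -0.19) did not pass the adjusted threshold (adjusted p = 0.106 by limma). A second probe (ILMN_1229167), annotated to a different Fgfr2 transcript record, read 63.9, 55.7 and 52.2 in the mutant and 19.1 and 12.9 in the control. Every mutant array was well above both controls, and the probe rose by 0.84 on the log2 scale, or 1.79-fold (standard error 0.09, adjusted p = 0.00408 by limma). It rose in each of 15 alternatives (log2 change 0.496 to 1.015) and was called in those that kept at least 2 arrays in each group. Mutant array C alone against the controls gave a log2 change of 0.76, and the removal of control array A or B 0.92 or 0.75. These fits leave a single array in a group. The other 2 probes of Fgfr2, which share the record of the brightest probe, were dim and had log2 changes of -0.03 and -0.07 (adjusted p = 0.916 and 0.779).

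Set against the brightest probe on each array, the second Fgfr2 probe lay at log2 differences of -3.06, -2.74 and -3.06 on the mutant arrays and -4.37 and -4.26 on the controls. The 2 probes thus differed in their change by 1.36 on the log2 scale (standard error 0.14, adjusted p = 0.00204 by limma over 15828 such probe differences, of which 2.78% were called). This comparison was chosen after the values were seen. It did not pass without control array A or B (adjusted p = 0.0503 and 0.0696, with differences of 1.31 and 1.41), fits in which the remaining control is assumed to share the spread of the mutants. Set against the same brightest probe, the other 2 Fgfr2 probes differed in the same direction, by 0.49 and 0.46 on the log2 scale. Neither difference passed (adjusted p = 0.112 and 0.159 by limma). Probe sequences were not used here, so which exons the probes read is not known, and levels cannot be compared between probes.

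**Figure D2:**
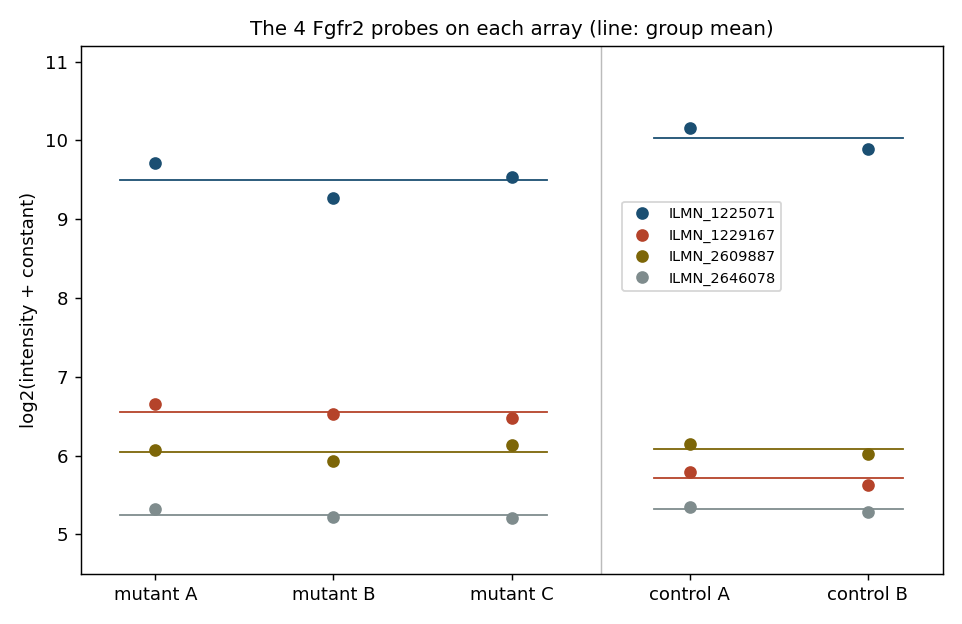
Level of the 4 Fgfr2 probes, as log2 of intensity plus 36.5 (vertical axis), on each mutant array (left) and control array (right), with a line for each group mean. The brightest probe, ILMN_1225071, is lower on all mutant arrays, while ILMN_1229167 is higher on all of them by 0.84 on average.

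Fgfr3, a receptor that in the lens is strongest in cells entering fiber differentiation, was lower in the mutant on both of its probes, and the dimmer passed the threshold. The brighter probe (ILMN_1257208) read 218, 244 and 383 on arrays A, B and C of the mutant, against 409 and 444 on the controls. Arrays A and B were far below the controls, and array C lay only just below control array A. The log2 change was -0.57 (standard error 0.19, 95% interval -1.03 to -0.12, adjusted p = 0.195 by limma). It was -0.79 without mutant array C (adjusted p = 0.00654) and -0.14 in array C alone, so the size of this difference turned on which mutant arrays were used. Array C is also the mutant array that resembled the controls on the sex-linked genes Xist and Eif2s3y. The part of sex in this difference was not tested. The dimmer probe (ILMN_2590766) read 16.8, 22.1 and 24.1 in the mutant and 41.0 and 37.4 in the control, with all mutant arrays below both controls, and fell by 0.40 on the log2 scale (standard error 0.09, adjusted p = 0.0472). This call was lost in 11 of 15 alternatives, among them quantile normalization (adjusted p = 0.0562), the removal of mutant array A (adjusted p = 0.14) or B (0.143), of control array A (0.125) or B (0.156), and mutant array C alone (0.4), with a lower level in the mutant each time.

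Of the Sprouty and Spred genes, membrane-bound inhibitors that act between the receptor and the Raf kinases, none of 3 probes passed. Spred1 (ILMN_2490252) read 188, 159 and 168 on the mutant arrays, against 123 and 68.6 on arrays A and B of the control. All mutant arrays exceeded both controls, which themselves differed widely, with a mutant mean of 172 ± 14.7 (SD, n = 3) and a control mean of 95.8 ± 38.4 (SD, n = 2). The log2 change of 0.68, or 1.60-fold on the shifted scale (standard error 0.16, 95% interval 0.30 to 1.07), had an adjusted p of 0.0699 by limma. It was 0.98 without control array A (adjusted p = 0.019) and 0.38 without control array B (adjusted p = 0.215).

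Spry4 (ILMN_2825817) read 28.5, 23.6 and 25.8 on the mutant arrays and 15.8 and 14.2 on the controls. The mutant arrays lay above both controls with little spread in either group, and the log2 change was 0.28 (standard error 0.08, 95% interval 0.10 to 0.46, adjusted p = 0.112 by limma). Spry2 (ILMN_2749464) was at background, with 1.9, 2.3 and 1.6 in the mutant and 3.1 and -2.2 in the control, a level too low to read a change from.

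Dusp6, a cytoplasmic phosphatase that removes the activating phosphates from ERK, showed no detectable difference on any of its 3 probes. The brightest (ILMN_2925711) read 310, 280 and 289 on the mutant arrays, against 342 and 222 on arrays A and B of the control. The mutant values lay between the 2 controls, and the log2 change was 0.08 (standard error 0.15, 95% interval -0.275 to 0.428, adjusted p = 0.876 by limma). The interval leaves room for differences of either sign, and the other probes had log2 changes of 0.09 each, with adjusted p-values of 0.852 and 0.701. Without control array B the change of the brightest probe turned to -0.20 (adjusted p = 0.541).

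Etv4 and Etv5 encode closely related ETS transcription factors of the PEA3 group and differed in direction. Etv4 (ILMN_2778111) read 33.3, 29.1 and 51.3 on the mutant arrays, against 11.8 and 10.8 on the controls. Every mutant array was more than double either control in intensity, array C the highest, with a mutant mean of 37.9 ± 11.8 (SD, n = 3) and a control mean of 11.3 ± 0.707 (SD, n = 2). On the shifted log2 scale Etv4 rose by 0.63, or 1.54-fold (standard error 0.13, adjusted p = 0.0366 by limma). In array C alone the log2 change was 0.88, and without control array A or B it was 0.64 or 0.61. These fits leave a single array in a group. Among the fits that kept at least 2 arrays in each group, the call was lost in 3. These were the fits without mutant array A (adjusted p = 0.0665 by limma), with array weights (0.0608) and with the lowest value at 64 (0.109).

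Etv5, in contrast, was lower in the mutant on both probes without passing. The brighter (ILMN_1235329) read 144, 173 and 206 on the mutant arrays and 208 and 216 on the controls, and the other (ILMN_2938047) 110, 122 and 134 in the mutant and 155 and 162 in the control. All mutant arrays lay below both controls on each probe, array C closest to them. The log2 changes were -0.25 (standard error 0.12, 95% interval -0.53 to 0.04, adjusted p = 0.421 by limma) and -0.30 (standard error 0.09, 95% interval -0.506 to -0.095, adjusted p = 0.132). Whether the changes of Etv4 and Etv5 differ from each other was not tested.

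**Figure D3:**
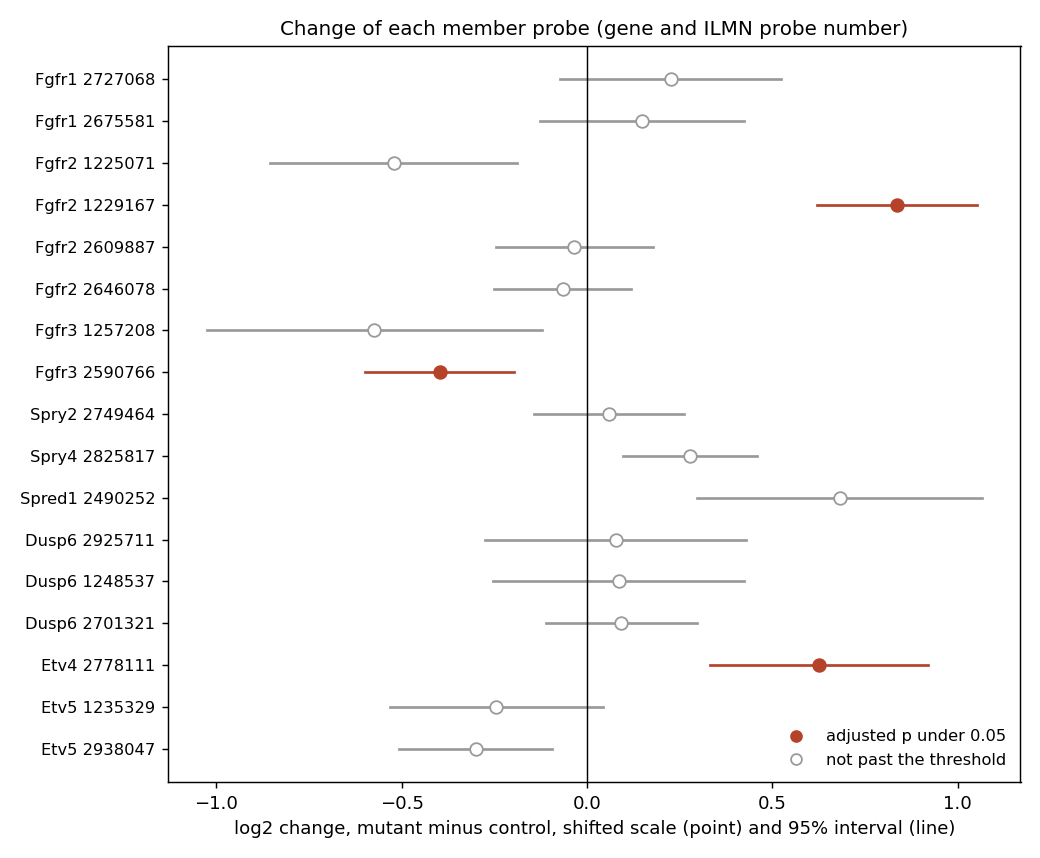
Log2 change of each of the 17 probes, mutant minus control on the shifted scale (horizontal axis), with its 95% interval from limma. Filled points mark the 3 probes with an adjusted p under 0.05, at 0.84 for Fgfr2, 0.63 for Etv4 and -0.40 for Fgfr3.

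**Figure D4:**
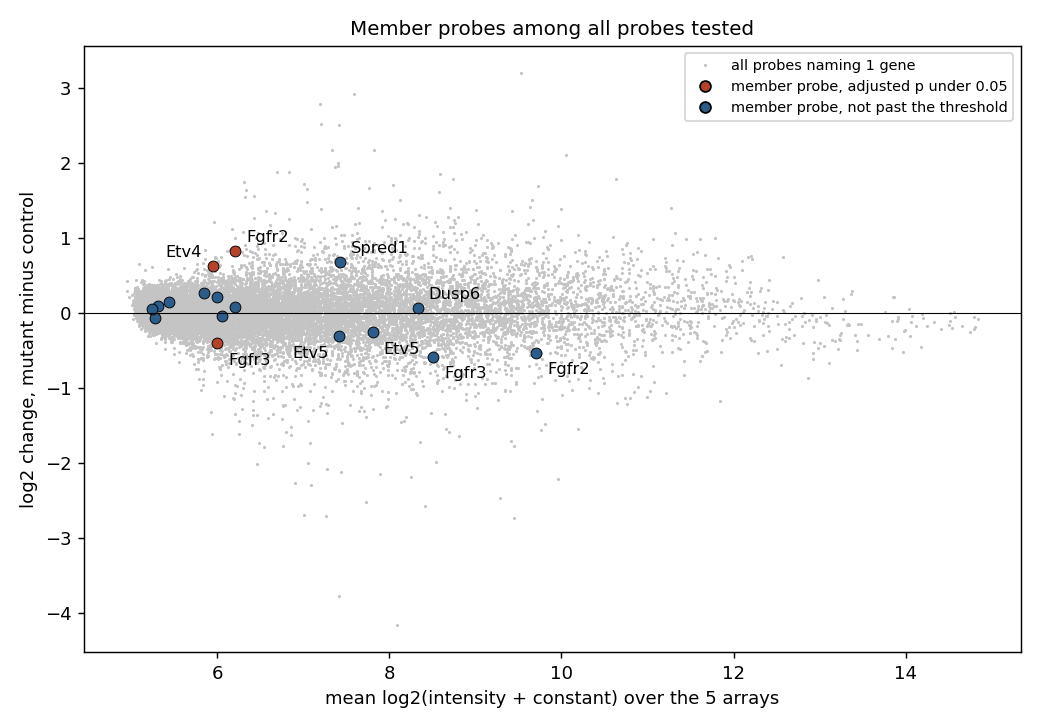
Log2 change, mutant minus control (vertical axis), against the mean log2 level over the 5 arrays (horizontal axis) for all 34885 probes, with the 17 probes of the FGF receptors and feedback genes drawn large. Red points are the 3 called probes, at 0.84 for Fgfr2, 0.63 for Etv4 and -0.40 for Fgfr3, and blue points the other 14.

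The rest of the pathway was read from lists of ligands, co-receptors, signal carriers, inhibitors and targets, each gene by its brightest probe, with 5.66% of the brightest probes of all genes called. Among ligands, 0 of 18 passed by limma, and 12 of 18 lay at or below the median probe. Fgf1, a ligand that binds all FGF receptors, had the smallest p, with 6.8, 14.1 and 2.0 on the mutant arrays and 29.3 and 21.2 on the controls (log2 change -0.49, adjusted p = 0.0853). At an unadjusted p under 0.05, which 15.2% of all probes passed in either direction, Fgf1 and Fgf15 were lower and 0 of 18 ligands were higher.

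Of 28 measured other receptors and heparan sulphate co-receptors, 1 rose and 2 fell, with a median log2 change of -0.03 against 0.00 over all genes. Fgfrl1, a receptor that lacks the kinase domain of the others, read 600, 621 and 578 on the mutant arrays, against 1212 and 1130 on the controls. The groups were far apart, with a mutant mean of 600 ± 21.4 (SD, n = 3) and a control mean of 1171 ± 58.1 (SD, n = 2), and Fgfrl1 fell by 0.92 on the log2 scale (standard error 0.08, adjusted p = 0.00172 by limma). Its log2 change was -0.97 to -0.88 in 16 alternatives, and it passed in those that kept at least 2 arrays in each group. Sulf1, an enzyme that strips sulphate groups from heparan sulphate, fell by 0.80 (adjusted p = 0.0303), and a second probe of it by 0.48 (adjusted p = 0.0415). Flrt2, of a family of membrane proteins that bind FGF receptors, rose by 0.60 (adjusted p = 0.0317). Sulf1 passed in 10 and Flrt2 in 9 of 16 alternatives, and neither passed without mutant array A, control array A or control array B. Flrt2 did not pass without mutant array B (adjusted p = 0.0848) or in array C alone (0.213) either.

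Of 22 measured adaptors and members of the Ras and MAP kinase cascade, 0 rose and 2 fell, with a median log2 change of -0.08. Shc1, an adaptor that links receptor tyrosine kinases to Ras, read 4953, 5174 and 4647 on the mutant arrays, against 7318 and 8604 on the controls. All mutant arrays were well below both, and Shc1 fell by 0.69 (standard error 0.10, adjusted p = 0.00948 by limma, 0.0682 without control array B). Crk, another adaptor, fell by 0.45 (adjusted p = 0.0325), a call made in 7 of 16 alternatives and lost without any one of the 5 arrays (adjusted p from 0.061 to 0.109) and in array C alone (0.132). The uncalled genes nearest to the threshold, named after their values were seen, had log2 changes of opposite sign. Pik3r1, a regulatory subunit of PI3 kinase, read 269, 268 and 265 in the mutant and 190 and 213 in the control (log2 change 0.35, adjusted p = 0.0531), and Nras had a log2 change of -0.36 (adjusted p = 0.0969).

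Of 18 other feedback inhibitors, 1 rose and 0 fell, with a median of 0.00. This was Dusp16, a phosphatase of the JNK kinases, which read 297, 320 and 302 on the mutant arrays and 212 and 217 on the controls, a log2 change of 0.45 (standard error 0.08, adjusted p = 0.0192 by limma). The call was made in 10 of 16 alternatives and lost without mutant array A (adjusted p = 0.0546), mutant array B (0.0938), control array A (0.0637) or control array B (0.0892), and in array C alone (0.192). Of 23 other ETS and immediate-early genes, 2 rose and 0 fell, with a median of 0.09. Junb and Fosl2, both subunits of the AP-1 transcription factor, rose. Junb read 61.6, 62.4 and 84.9 in the mutant and 27.2 and 25.3 in the control (log2 change 0.75, adjusted p = 0.0103), and Fosl2 29.3, 26.5 and 30.6 in the mutant and 10.3 and 7.5 in the control (log2 change 0.52, adjusted p = 0.0112). In both, the mutant arrays were clear of the controls, and array C was the highest. Both genes respond to many stimuli besides FGF. Egr1, an immediate-early gene named after its values were seen, had 309, 556 and 635 in the mutant and 204 and 278 in the control, a log2 change of 0.91 that did not pass (adjusted p = 0.13), and its mutant arrays spread widely. Junb did not pass without control array A (adjusted p = 0.052) or B (0.0952), and Fosl2 did not without control array B (0.079) or in array C alone (0.0905). Over all 7 lists, 10 of 129 measured genes passed, 4 higher and 6 lower. Over all 19057 genes, 587 were higher and 492 lower, or 5.66% in either direction. Whether the lists differ from all genes in this share was not tested. Of 16 other probes of these 10 genes, 1 passed, that of Sulf1. Those that did not include Shc1 at -0.33 (adjusted p = 0.198), Crk at -0.26 and -0.02 (0.149 and 0.973), Fosl2 at 0.05 and 0.23 (0.828 and 0.289) and Dusp16 at 0.49, 0.32 and -0.04 (0.0639, 0.656 and 0.914), as log2 changes. The count of called genes was 5 without control array A and 1, Fgfrl1, without control array B.

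**Figure D5:**
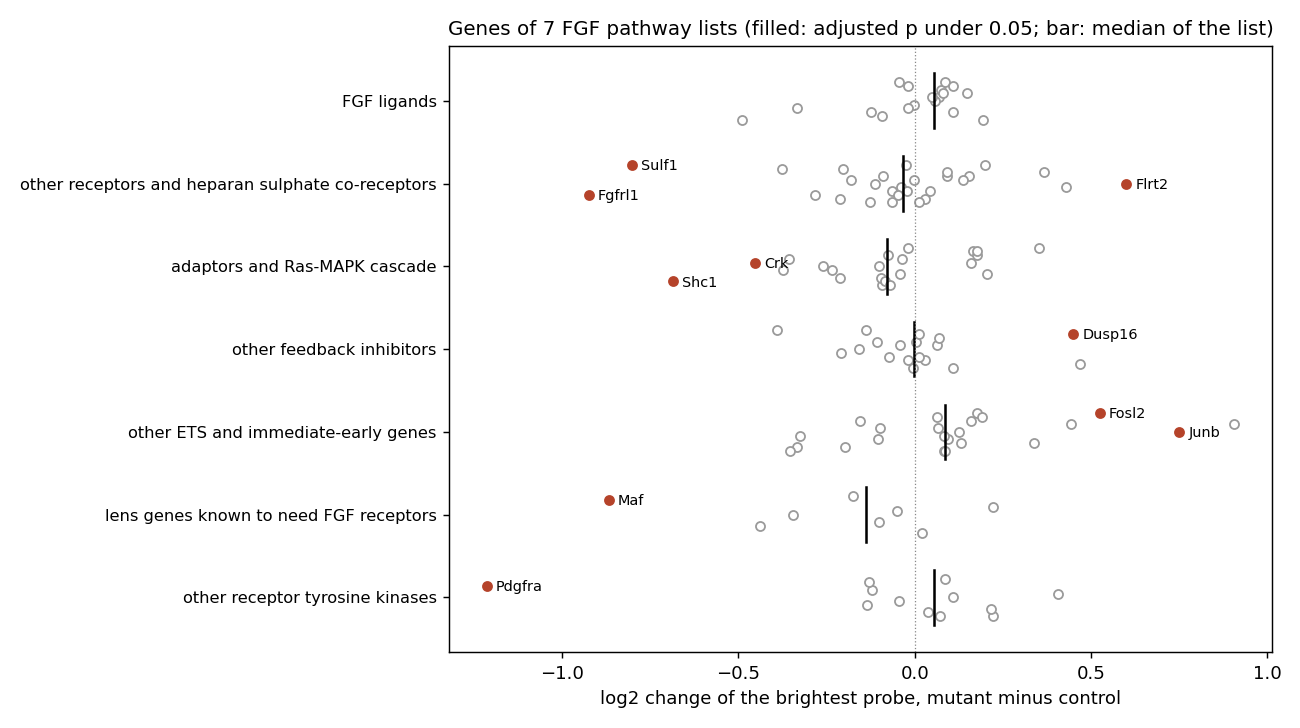
Log2 change of the brightest probe, mutant minus control (horizontal axis), for the measured genes of 7 lists around FGF signalling (rows), with a bar at each list's median. Filled, named points have an adjusted p under 0.05, from -1.21 for Pdgfra to 0.75 for Junb.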

How the data were processed

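Lens RNA of newborn mice was measured on 3 mutant and 2 control Illumina arrays. The authors used lumi for background correction and Rank Invariant normalization, and the deposited values are linear intensities, 1 for each probe on each array. No version of lumi is given in the sources read. All 5 columns of the table were used. The table has 45281 probes: by GEO's platform annotation 34885 have 1 gene, 18 have several and 10378 are unnamed.

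Log2(intensity + 36.5) of the 34885 probes was compared between mutant and control with limma 3.58.1 in R 4.3.3 (lmFit, eBayes, two-sided, no block, no filter on dim probes), with a threshold of 0.05 after Benjamini-Hochberg adjustment. List genes were read by the probe with the highest mean intensity. Figures were drawn with matplotlib 3.10.9 in Python 3.11.15. The study's methods name no test for the arrays.

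All probes of the 9 measured genes are named, together with the list genes past the threshold or, in a list with none, the gene with the smallest p. Pik3r1, Nras, Egr1, Prox1 and the other uncalled lens genes known to need FGF receptors fall outside this rule and were named after their values were seen. The genes, lists and tests were chosen with earlier results of these data known. Of 140 listed genes, 11 had no named probe. On simulated data with 34885 probes, the code called 90 of 100 probes given a log2 change of 1, 100 of 100 given 2, and 18 given none. The changed probes were drawn only from those above the median level, so dim probes were not covered. The spread of each simulated probe was drawn from the distribution limma fitted over all probes, not from its own values. Smaller changes, such as those of the called Fgfr2, Etv4 and Fgfr3 probes (0.84, 0.63 and -0.40), were not simulated. These counts therefore give no recovery rate for them. Alternatives were other normalizations, constants, filters, probe choices, moderation, weights, the replicate letter as a block, and the removal of arrays. The number of arrays limits the precision.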

Additional observations from a re-analysis of the deposited data

How the results depend on the processing

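The second Fgfr2 probe kept its direction in its 15 alternatives, and its call in those with at least 2 arrays in each group. The Etv4 call was lost without single arrays, with array weights or with another constant. The Fgfr3 call was lost in most alternatives, also with quantile normalization (adjusted p = 0.0562), dim probes left out (0.0535), trend and robust moderation (0.0776) and array weights (0.0584). The cause was not tested. Of the 17 probes, 3 were called, against 1 with the lowest value placed at 64, 1 with array weights, 1 of 9 genes by the brightest probe, 1 of 9 by gene averages over probes, and 1 to 4 when single arrays were left out. With the replicate letter as a block (a paired fit, in which mutant array C has no partner) 6 were called. Arrays of the same letter did not deviate together (correlations of 0 for A and 0.02 for B). With 2 controls, their deviations from the control mean mirror each other, so this check cannot settle the pairing. The letters are not taken as pairs. For the list genes the count of 10 became 4 with probes averaged and 1 to 10 without single arrays. Over all probes the count of 1494 became 896 of 19057 genes with probes averaged and 420 to 1494 without single arrays (420 without control array B, 728 without mutant array B), and 2227 with the replicate block. Probes at an unadjusted p under 0.05 with at least a 2.0-fold change numbered 231, against 123 with the lowest value at 64, 98 genes with probes averaged and 480 in mutant array C alone. Of the 17 probes, 4 changed sign, none of them called: without single arrays an Fgfr2 probe (ILMN_2609887) ranged from -0.094 to 0.027, Spry2 from -0.043 to 0.164 and 2 Dusp6 probes from -0.199 to 0.353 and from -0.126 to 0.296, and in mutant array C alone the first read 0.055 and Dusp6 (ILMN_1248537) -0.092. Averaging probes gives no value for a single probe. Of the 17 probes, 4 had a mean at or below the median probe, which limits what they can show.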

Other observations

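Of 12 other receptor tyrosine kinases, 0 rose and 1 fell, where 5.66% of all genes were called in either direction. Pdgfra, a receptor for platelet-derived growth factor that acts in the lens epithelium, read 130, 82.6 and 82.7 on the mutant arrays, against 251 and 295 on the controls, and fell by 1.21 on the log2 scale (standard error 0.16, adjusted p = 0.00688 by limma). All 3 mutant arrays were far below both controls. The call was lost without control array B (adjusted p = 0.08).

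Of 8 lens genes known to need FGF receptors in mice, 0 rose and 1 fell, where 5.66% of all genes were called in either direction. The median log2 change of the list was -0.14. Maf, a transcription factor of fiber differentiation, read 106, 109 and 77.2 on the mutant arrays, against 189 and 225 on the controls, a log2 change of -0.87 (adjusted p = 0.0105 by limma, 0.106 without control array B). Prox1, another fiber transcription factor, was the uncalled gene of the list nearest to the threshold and was named after its values were seen. It read 1930, 1947 and 1827 in the mutant and 2497 and 2356 in the control. Every mutant array lay below both controls, with a log2 change of -0.35 (adjusted p = 0.0542 by limma). Of the other uncalled genes, Cdkn1c and Cdkn1b had log2 changes of 0.22 and 0.02. Those of Jag1, Cryba1, Cryaa and Crybb1 were -0.44, -0.18, -0.10 and -0.05.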
